A study of Mus musculus with 2 samples.

Results

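The set held 42 chosen mouse genes of the transforming growth factor beta (TGF-beta) and bone morphogenetic protein (BMP) family. They encode ligands, secreted antagonists and receptors, and 17 had a peak of Suz12 in differentiating embryonic stem cells. The genes with a peak were 12 of 29 ligand genes and 5 of 5 antagonist genes, and none of the 8 receptor genes had one. With other pathway genes added, the counts were 12 of 33 ligand, 9 of 18 secreted antagonist and 6 of 19 receptor and co-receptor genes. A gene was counted when a peak overlapped the gene or lay within 2.5 kb of it, a rule that 2833 of all 21631 protein-coding genes met (13.1%). The 42 genes were taken by name as members of these 3 classes, with earlier results of these data known. All 42 were found in the RefSeq annotation of the mouse build GRCm38.

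The peaks come from 1 library of chromatin immunoprecipitation followed by sequencing, made with an antibody against Suz12 from wild-type E14 cells, a mouse embryonic stem cell line. Differentiation had run for 72 h. For this, leukemia inhibitory factor, which keeps such cells pluripotent, was taken out of the serum medium and all-trans-retinoic acid was added at 1 µM. The other library of the series, from Suz12 knockout cells at 0 h, was not analysed here. With 1 library there is no replicate error and no p-value, and since the list gives no reads its depth is unknown, so genes called negative here could still carry Suz12 too weak for the authors' peak caller. A peak list holds no expression values, so the cell type could not be checked against marker genes.

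Ligands of this family are secreted as dimers and bring together type I and type II receptor kinases, which phosphorylate Smad proteins that enter the nucleus. Nodal and activins act through the same branch of Smads as TGF-beta, and BMPs act through the other. Secreted antagonists such as noggin and chordin bind BMPs and keep them from their receptors. In the early embryo these signals set up mesoderm, endoderm and the left-right axis, and neural tissue forms where BMP signals are blocked. Suz12 belongs to Polycomb Repressive Complex 2 (PRC2), which methylates histone H3 on lysine 27 and gathers at CpG islands, stretches rich in CG dinucleotides that surround the starts of many genes.

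The starts of 8 genes, read from RefSeq (GRCm38.p6), are examples of sequence that the Suz12 peaks did and did not cover. They were picked by hand and do not span the full range of CG content in the set. Each window holds the 250 bases before and the 50 bases after the annotated start, on the gene's own strand, with every CG dinucleotide in capitals. The first pair holds the genes of the activin beta subunits, where Inhbb (chr1:119422199-119422498, minus strand) lay under a peak and Inhba (chr13:16011601-16011900, plus strand) did not.
Inhbb: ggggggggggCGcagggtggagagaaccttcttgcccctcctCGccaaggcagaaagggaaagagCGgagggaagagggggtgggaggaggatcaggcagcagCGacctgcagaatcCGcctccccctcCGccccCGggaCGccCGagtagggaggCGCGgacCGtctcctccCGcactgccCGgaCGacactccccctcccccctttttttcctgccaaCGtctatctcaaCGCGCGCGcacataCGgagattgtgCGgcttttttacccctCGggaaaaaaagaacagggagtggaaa
Inhba: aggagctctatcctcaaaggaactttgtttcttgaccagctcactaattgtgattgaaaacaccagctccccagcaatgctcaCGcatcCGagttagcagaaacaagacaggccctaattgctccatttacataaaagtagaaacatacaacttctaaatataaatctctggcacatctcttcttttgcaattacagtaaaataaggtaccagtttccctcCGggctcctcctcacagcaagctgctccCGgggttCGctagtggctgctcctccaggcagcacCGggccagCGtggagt
The second pair holds 2 BMP genes of 1 subfamily, where Bmp6 (chr13:38345466-38345765, plus strand) lay under a peak and Bmp5 (chr9:75775115-75775414, plus strand) did not.
Bmp6: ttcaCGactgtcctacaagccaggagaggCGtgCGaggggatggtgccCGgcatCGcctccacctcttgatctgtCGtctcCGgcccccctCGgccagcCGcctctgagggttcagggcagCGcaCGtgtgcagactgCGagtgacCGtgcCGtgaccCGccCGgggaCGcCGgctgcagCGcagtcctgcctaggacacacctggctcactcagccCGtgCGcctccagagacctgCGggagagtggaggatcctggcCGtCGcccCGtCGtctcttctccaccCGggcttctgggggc
Bmp5: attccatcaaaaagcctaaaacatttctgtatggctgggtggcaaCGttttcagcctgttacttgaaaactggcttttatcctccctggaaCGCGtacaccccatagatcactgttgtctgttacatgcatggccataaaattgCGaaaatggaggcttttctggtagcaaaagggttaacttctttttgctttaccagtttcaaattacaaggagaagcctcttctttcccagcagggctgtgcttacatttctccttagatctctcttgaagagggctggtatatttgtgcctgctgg
The next pair comes from the ligand gene with the widest peak, Gdf7 (chr12:8301905-8302204, minus strand), and from the antagonist gene Grem1 (chr2:113758599-113758898, minus strand).
Gdf7: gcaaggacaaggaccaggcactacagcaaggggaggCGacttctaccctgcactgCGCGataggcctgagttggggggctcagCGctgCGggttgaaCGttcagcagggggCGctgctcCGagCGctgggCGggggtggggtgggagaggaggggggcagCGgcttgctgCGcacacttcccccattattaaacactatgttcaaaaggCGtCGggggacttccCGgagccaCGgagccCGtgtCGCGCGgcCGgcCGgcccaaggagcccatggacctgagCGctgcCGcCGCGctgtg
Grem1: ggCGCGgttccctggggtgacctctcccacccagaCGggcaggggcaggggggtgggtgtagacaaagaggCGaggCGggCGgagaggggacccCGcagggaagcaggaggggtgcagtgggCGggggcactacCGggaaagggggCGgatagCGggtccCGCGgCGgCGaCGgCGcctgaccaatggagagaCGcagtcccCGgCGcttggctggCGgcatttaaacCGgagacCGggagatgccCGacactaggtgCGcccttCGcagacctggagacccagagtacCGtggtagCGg
The last pair comes from receptor genes without a peak, Bmpr1a (chr14:34502497-34502796, minus strand) with many CG dinucleotides and Tgfbr2 (chr9:116175314-116175613, minus strand) with fewer.
Bmpr1a: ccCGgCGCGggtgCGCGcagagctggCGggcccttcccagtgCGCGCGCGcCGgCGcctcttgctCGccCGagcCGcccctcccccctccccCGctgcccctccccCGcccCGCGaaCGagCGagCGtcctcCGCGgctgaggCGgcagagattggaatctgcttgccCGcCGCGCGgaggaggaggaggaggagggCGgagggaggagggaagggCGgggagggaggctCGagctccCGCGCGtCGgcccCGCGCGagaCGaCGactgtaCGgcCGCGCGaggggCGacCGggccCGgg
Tgfbr2: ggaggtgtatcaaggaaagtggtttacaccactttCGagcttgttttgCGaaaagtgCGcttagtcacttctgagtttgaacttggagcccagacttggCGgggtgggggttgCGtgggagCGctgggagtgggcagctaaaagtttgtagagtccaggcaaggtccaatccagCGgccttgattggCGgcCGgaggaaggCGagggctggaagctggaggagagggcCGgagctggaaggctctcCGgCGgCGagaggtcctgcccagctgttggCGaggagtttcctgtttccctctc
The Inhbb window holds 23 CG dinucleotides and the Inhba window 7, and the Bmp6 window holds 27 and the Bmp5 window 4. The Inhba window lies inside the gene, which begins at 16004256, so the sequence at that outer end was not read. The Bmpr1a window, with 48, holds more than any window shown that lay under a peak.

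By class, the share of genes with a peak was 41.4% for the ligands (exact 95% binomial interval 23.5 to 61.1), 100% for the antagonists (47.8 to 100) and 0% for the receptors (0 to 36.9). Over the whole set it was 40.5% (25.6 to 56.7), against 13.1% of all protein-coding genes. The intervals cover counting error only and treat genes as independent.

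**Figure D1:**
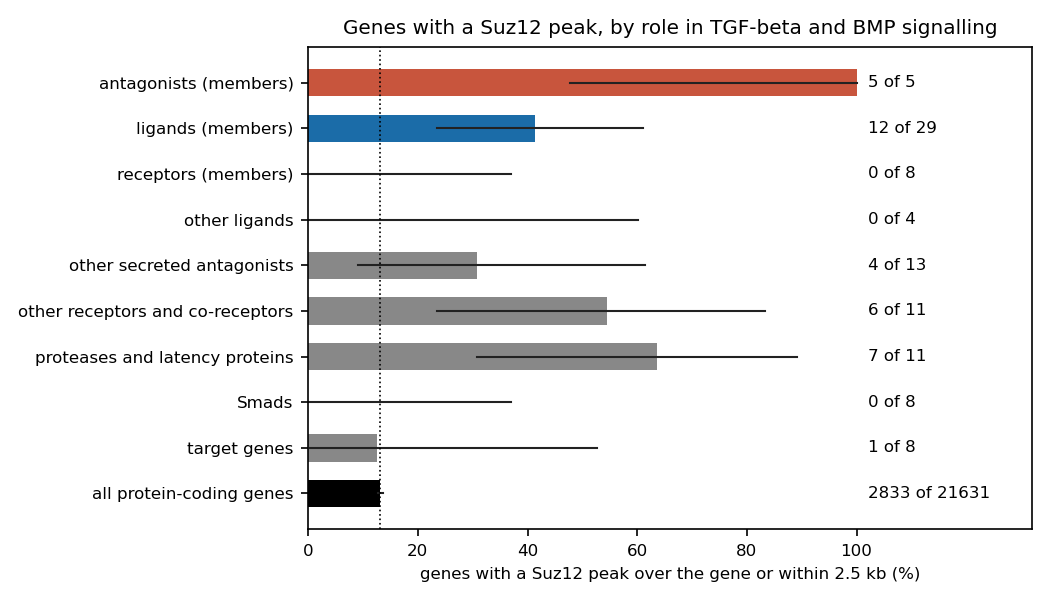
Percent of genes with a Suz12 peak over the gene or within 2.5 kb of it, for the 3 classes of the set, for 6 lists of other genes of the pathway and for all protein-coding genes. Black lines are exact 95% binomial intervals and the dotted line marks the share of all genes. The antagonists of the set stand at 5 of 5 and the receptors of the set at 0 of 8.

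The authors' score, on a scale their file does not state, ranks the peaks of this list, and 325 of its 3373 peaks share the value 3100, so scores do not order the peaks at that value. Over the 17 genes with a peak, the best score had a median of 1130 and the best peak a median width of 1994 bp, against 663 and 1981 bp over all 2833 genes with a peak. A best score of 3100 or more was found at 3 of the 42 genes, against 1.71% of all protein-coding genes. Among genes with a peak the shares were closer, 3 of 17 (17.6%) against 369 of 2833 (13.0%). In the whole list the scores ran from 150.3 to 3233 and the widths from 318 to 20581 bp.

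**Figure D2:**
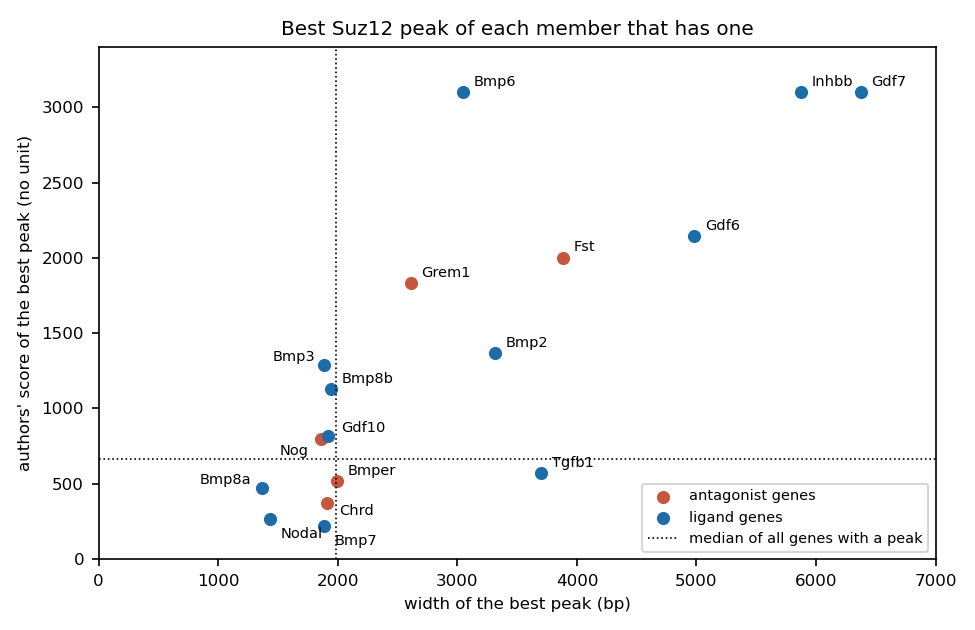
Width in bp (x axis) and the authors' score (y axis) of the highest-scoring Suz12 peak of each of the 17 genes with a peak. Dotted lines are the medians over all protein-coding genes with a peak, 1981 bp and 663. Gdf7, Inhbb and Bmp6 share the score 3100, and Tgfb1 is wide for its score of 570.

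Among the ligand genes the highest-scoring peaks lay at Gdf7, Inhbb and Bmp6, each with the score 3100. Gdf7, a BMP of the roof plate of the spinal cord, was covered from end to end by a peak of 6377 bp on chromosome 12 from 8296886 to 8303262. The same peak overlapped an end of its neighbour Ldah. Inhbb, which encodes the activin and inhibin beta B subunit, had a peak of 5874 bp on chromosome 1 from 119418440 to 119424313. A further peak of score 190 lay 6 bases from it, and peaks covered 75.6% of the gene. At Bmp6, a ligand that controls iron balance through the liver, the peak was 3049 bp wide and lay on chromosome 13 from 38344635 to 38347683. It was among the narrow ones at this score, where the median width was 5477 bp and 310 of the 325 peaks were wider.

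A middle range of scores held Gdf6, Bmp2, Bmp3, Bmp8b and Gdf10. Gdf6, needed for joints and for the skull and eye, scored 2145 with a peak of 4983 bp at 1 end and had a further peak of score 185 inside the gene near its other end. Bmp2, a ligand of early mesoderm and heart, scored 1368 with 3318 bp on chromosome 2 from 133551723 to 133555040. Bmp3, which opposes bone-forming BMPs, scored 1289 with 1888 bp. Bmp8b, a ligand in germ cell formation, scored 1130 with 1945 bp, and Gdf10, the closest relative of Bmp3, scored 817 with 1921 bp. These scores lay above those of at least 61.6% of all peaks.

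The lowest scores among ligand genes belonged to Tgfb1, Bmp8a, Nodal and Bmp7. The Tgfb1 peak scored 570 but was 3703 bp wide, and of the 252 peaks scoring within 10% of it 1 was wider. It also overlapped an end of the neighbouring gene B9d2. Bmp8a, next of kin to Bmp8b, scored 471 with 1363 bp. Nodal, the ligand that induces mesoderm and endoderm, scored 266 with 1436 bp on chromosome 10 from 61418101 to 61419536. Bmp7, needed for kidney and eye, scored 217 with 1883 bp, and 15.4% of all peaks scored lower.

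The 5 antagonist genes had best scores from 374 to 2001 and none at 3100. Fst, encoding follistatin, which binds activins, scored 2001 with a peak of 3887 bp on chromosome 13 from 114456085 to 114459971. A small peak of score 201 lay 139 bases beyond it, outside the gene. Grem1, encoding the BMP antagonist gremlin, scored 1834 with 2611 bp on chromosome 2 from 113756891 to 113759501. Nog, encoding noggin, scored 800 with 1862 bp, which covered 77.4% of this short gene. Bmper, whose product binds BMPs in the matrix, scored 516 with 1994 bp, and Chrd, encoding chordin, scored 374 with 1908 bp. The Chrd peak also overlapped the gene Thpo. The median best score of the 5 was 800, against 1210 for the 12 ligand genes with a peak and 663 over all genes with a peak. The Fst and Grem1 scores lay above those of 82.8% and 81.2% of all peaks.

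All 17 genes had their best peak overlapping the gene and within 2.5 kb of one of its ends. The Chrd peak lay farthest from an end, 1376 bases inside the gene, over an annotated start. Counted by gene ends alone, the set stayed at 17 of 42, against 11.7% of all protein-coding genes. Of all 2833 protein-coding genes with a peak, 2540 had one by this count, so this place is common in the whole list. The RefSeq table of starts held 29 of the 42 genes, 11 of them with a peak. The 13 genes without an entry were Bmp2, Bmp3, Bmp7, Gdf3, Gdf5, Gdf6, Gdf9, Tgfb3, Lefty1, Lefty2, Amh, Nog and Fst. At 9 of the 11 genes the peak covered the start itself. The other 2 were Bmp8a and Nodal, whose peaks began 66 and 129 bases after the start. By the stricter rule that a peak overlaps the 300 bases round the start, 9 of 29 genes counted, against 8.74% of the 17274 protein-coding genes with an entry. Among genes with both an entry and a peak, this rule held for 9 of 11, against 71.8% of all 2101 such genes.

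Where a peak covered the start, it reached farther into the gene than before it at 9 of 9 genes. The Gdf7 peak ran 1308 bases before and 5068 after the start, that of Inhbb 2065 and 3808, and that of Tgfb1 946 and 2756. The reach was more even at Bmper, with 882 and 1111 bases, and at Bmp8b, with 877 and 1067. The medians over the 9 genes were 882 bases before and 1757 after, against 604 and 1374 over 1143 genes with 1 annotated start under a peak. Of these 1143 genes, 84.3% had the longer reach into the gene, so this shape is common in the whole list.

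**Figure D3:**
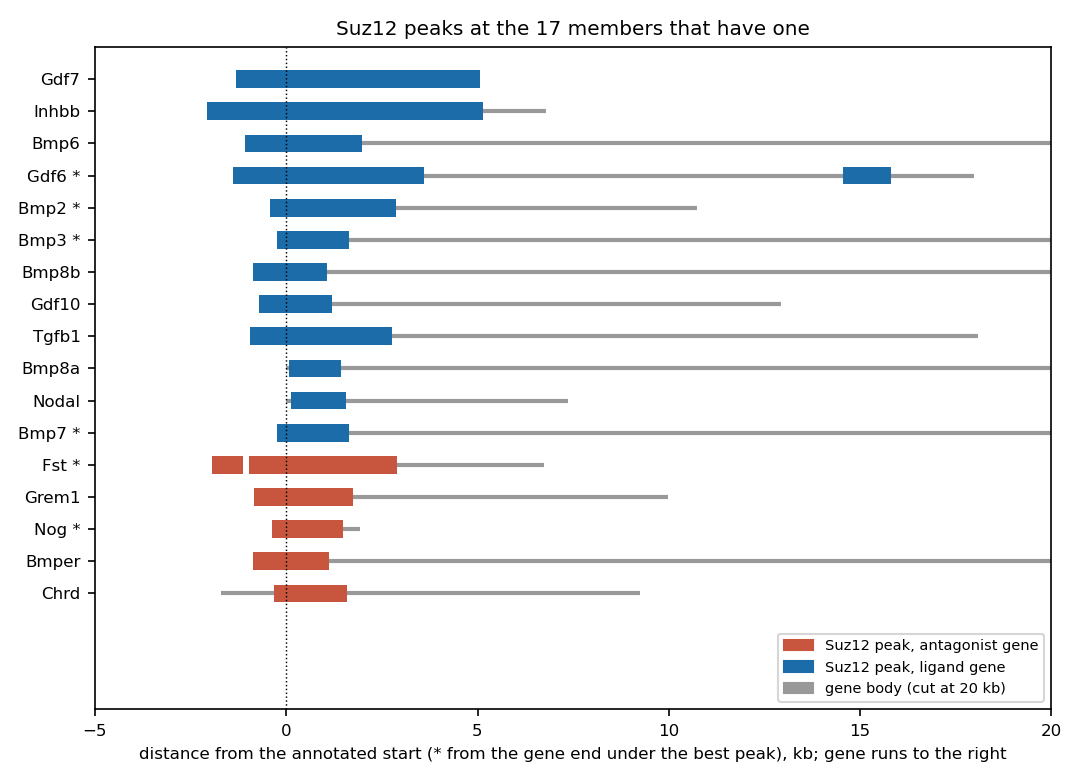
Suz12 peaks (coloured bars) at the 17 genes that have one, by distance in kb from the annotated start, or, for the 6 genes marked with a star, from the gene end under the best peak. Grey lines are gene bodies, drawn to the right and ended at 20 kb. Ligand genes come first and antagonist genes below them, each by score. Starred genes have their best peak at the zero line because the zero was set by that peak. At the other genes the zero is the annotated start nearest to the peak, and the best peak lies over it or within 129 bases of it.

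No receptor gene of the set had a peak over it or within 2.5 kb. The type I receptor genes are Bmpr1a, Bmpr1b, Acvr1 and Tgfbr1, and the type II receptor genes are Bmpr2, Acvr2a, Acvr2b and Tgfbr2. The nearest peak lay 87.9 kb from Acvr1, at its relative and neighbour Acvr1c, and 1108.1 kb from Tgfbr2, and the median distance over the 8 genes was 160.8 kb. Receptor genes are long, with a median of 90.7 kb against 17.3 kb for all genes, and a long gene has more room for a peak. Of the receptor genes over 60 kb, 0 of 7 had a peak (0 to 41.0%), against 989 of 4158 protein-coding genes of that length (23.8%). Among ligand genes over 60 kb, Bmp6 and Bmp7 had a peak and Bmp5 and Tgfb2 had none.

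The 17 ligand genes without a peak include several with known parts in the early embryo. Bmp4, which induces mesoderm and germ cells, had its nearest peak 982.7 kb away. The nearest peak of Inhba, the activin beta A gene, lay 1480.9 kb away, the farthest in the set. Gdf1 and Gdf3, which act with Nodal, had their nearest peaks 40.8 and 52.5 kb away. Lefty1 and Lefty2, ligand-like genes whose products block Nodal, had none either. Lefty1 stood just outside the rule, since a peak of score 288 and 2043 bp lay 3130 bases from it, beside Tmem63a. The farthest peak inside the rule was the small one beyond Fst, 1122 bases from the gene.

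The other ligand genes without a peak have parts in a range of tissues. Mstn, which limits muscle growth, and its relative Gdf11, which patterns the trunk, had nearest peaks 333.6 and 41.4 kb away. Gdf9 of the oocyte, Amh of the testis and Inha, the inhibin alpha gene, lay 19.0, 25.7 and 56.0 kb from a peak. The endothelial and heart ligand genes Gdf2 and Bmp10 lay 16.3 and 294.9 kb from one, and the nearest peak of Gdf2 was that of its neighbour Gdf10. Gdf5 of the joints, Bmp5, Tgfb2 and Tgfb3 had their nearest peaks 165.7, 909.6, 894.9 and 141.3 kb away.

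Of 13 groups of related genes in the set, 5 were split between genes with and without a peak, 7 had no peak at all and 1, Bmp3 with Gdf10, had a peak at every gene. The split groups were Bmp2 without Bmp4, Inhbb without Inhba, Tgfb1 without Tgfb2 and Tgfb3, Gdf6 and Gdf7 without Gdf5, and Bmp6, Bmp7, Bmp8a and Bmp8b without Bmp5. Among the pairs that lacked peaks altogether were Lefty1 with Lefty2, Gdf11 with Mstn, and each of the receptor pairs. The groups held 2 to 5 genes. A peak was found at 40.5% of the set and at 13.1% of all protein-coding genes. At such shares split groups and groups without a peak are both common, and whether these counts differ from that was not tested.

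CG content round the start differed between these genes. A start was called CpG-rich when its 300 bases had at least 50% G and C and an observed over expected CpG ratio of at least 0.6. Of the 8 ligand genes with a start entry and a peak, 6 were CpG-rich, and of the 10 ligand genes with an entry and no peak 2 were. Over all protein-coding genes with an entry, 65.3% of the promoters of genes with a peak and 48.8% of all promoters were CpG-rich. The median number of CG dinucleotides was 24.5 in the ligand genes with a peak, 6.5 in those without and 15 over all promoters. Those without include Inhba (7) and Tgfb2 (10), whose listed starts lie inside the gene. The sequence at their outer ends was not read. The 6 CpG-rich ones were Bmp6, Bmp8b, Gdf7, Gdf10, Inhbb and Tgfb1, with ratios from 0.69 to 0.96. The exceptions on one side were Nodal, with 5 CG dinucleotides, and Bmp8a, with 15, the same genes whose peaks began after the start. The exceptions on the other side were Gdf1, with 22, and Gdf11, with 36, which were CpG-rich and had no peak.

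The antagonist genes Chrd, Grem1 and Bmper all had CpG-rich starts, with 34, 28 and 31 CG dinucleotides. Of the 8 receptor genes 7 were CpG-rich as well, against 48.8% of all promoters. Of these CpG-rich starts 0 of 7 had a peak over them (0 to 41.0%), against 13.0% of all 8438 CpG-rich promoters. Acvr2a, Acvr1 and Bmpr1a held 54, 51 and 48 CG dinucleotides, more than any of the 11 genes with a peak and a start entry, among which Gdf10 held the most with 42. Bmpr1b was the receptor gene whose listed start was not CpG-rich, with 6. That start lies well inside the gene, which spans 141837135 to 142169585 on chromosome 3, so the sequence at the gene's outer end was not read. In the whole list the share of promoters under a peak was 0.759% for 0 to 4 CG dinucleotides, 10.7% for 10 to 14 and 18.8% for 40 to 44. Of the 29 starts, the 9 under a peak were all CpG-rich, against 1098 of the 1509 promoters under a peak over all genes. Of the 11 starts that were not CpG-rich, 0 lay under a peak (0 to 28.5%), against 4.65% of all such promoters.

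The motif TATAAA, searched on both strands of the 300 bases, was found in 5 of the 29 windows (17.2%) and in 13.0% of all promoters. The 5 genes were Gdf2, Gdf11, Mstn, Inhba and Tgfb2, all ligand genes without a peak, and 0 of the 11 windows of genes with a peak held it, against 7.62% of the promoters of all genes with a peak. In 11 windows a share of 7.62% would give few matches or none, and the difference was not tested. The Inhba and Tgfb2 windows lie inside their genes, so the outer ends were not searched. A match describes these letters only and says nothing of a bound factor.

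**Figure D4:**
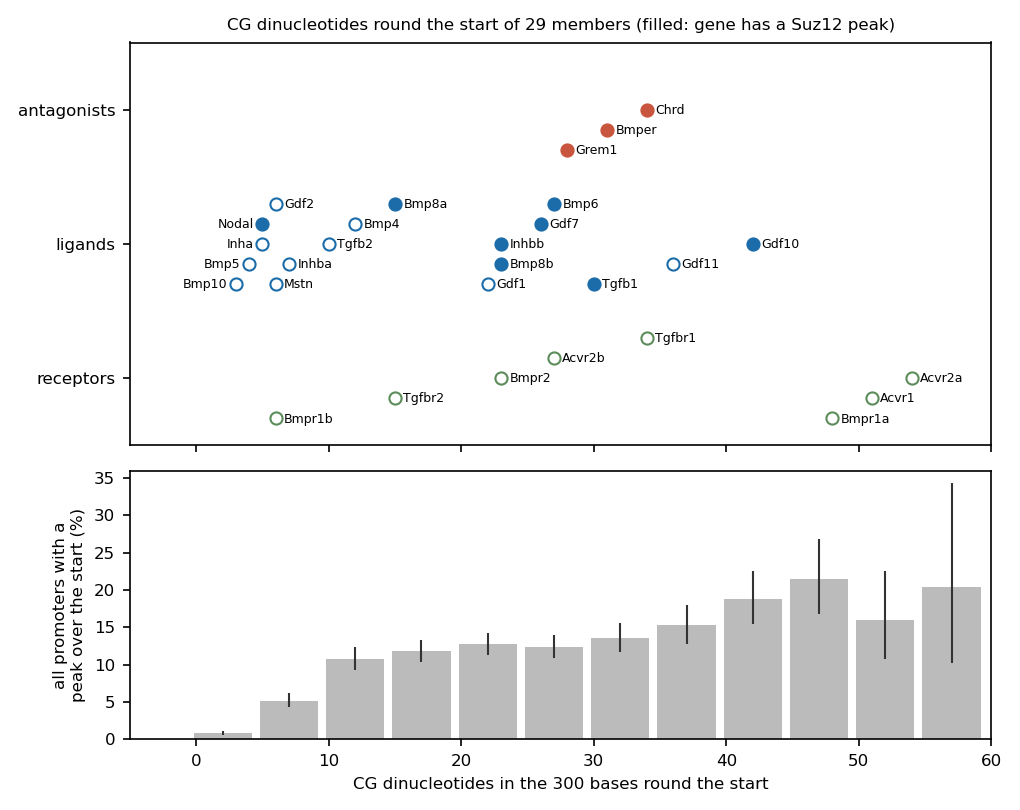
Above, CG dinucleotides in the 300 bases round the start of the 29 genes with a start entry, by class, where filled points are genes with a Suz12 peak and height within a class has no meaning. Below, the percent of all promoters under a peak by the number of CG dinucleotides, with exact 95% binomial intervals. Ligand genes without a peak lie mostly at the left, and receptor genes spread from 6 to 54 with no filled point.

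Of 55 further genes of the pathway in 6 lists, 18 had a peak (32.7%, 20.7 to 46.7), against 13.1% of all protein-coding genes, and their best score was at most 1814. Among other secreted antagonists 4 of 13 had a peak (30.8%, 9.09 to 61.4), namely Nbl1 (1624), Chrdl2 (1237), Sost (1213) and Kcp (399), while Cer1, Chrdl1, Crim1 and Dand5 were among those with none. Together with the 5 of the set, 9 of 18 secreted antagonist genes had a peak (50.0%, 26.0 to 74.0).

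Among other receptors and co-receptors 6 of 11 had a peak (54.5%, 23.4 to 83.3), and the difference from 0 of 8 in the set was not tested. They included the activin-like receptor gene Acvr1c (734), the co-receptor gene Tgfbr3 (367), Tdgf1 (341), whose product is a co-receptor of Nodal, and Rgma (288) and Rgmb (276), whose products are co-receptors of BMPs. Acvrl1 (164), a type I receptor gene of blood vessels, was the sixth, and Acvr1b, Amhr2, Bambi and Eng were among those with none. With the 8 of the set, 6 of 19 receptor and co-receptor genes had a peak (31.6%, 12.6 to 56.6).

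Genes for proteins that process or store the ligands had a peak at 7 of 11 (63.6%, 30.8 to 89.1), and by gene ends alone at 5 of 11. Of these 11 genes 6 are over 60 kb, a length at which 23.8% of all protein-coding genes had a peak. Ltbp2 (1814) and Ltbp4 (1065), of the family that tethers latent TGF-beta to the matrix, scored highest, followed by the protease genes Pcsk6 (686) and Tll1 (551) and by Ltbp3 (361). Bmp1, Furin, Lrrc32 and Ltbp1 had none. None of the 8 Smad genes had a peak (0 to 36.9%), among them Smad1, Smad2, Smad3 and Smad4. Of 8 target genes 1 had a peak (12.5%, 0.316 to 52.7), Id4 (1110), while Id1, Id2, Id3 and Ski were among those with none. The 4 other ligand genes, Bmp15, Gdf15, Inhbc and Inhbe, had none (0 to 60.2%). The intervals of the Smad, target and other ligand lists each include 13.1%, the share of all protein-coding genes.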

How the data were processed

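Suz12 binding was measured by ChIP-seq, and 1 peak list from wild-type E14 cells at 72 h was used. The tools named in the submitters' processing notes are Bowtie and MACS, with build GRCm38 (mm10). Which settings and control library they ran with is not given in the sources used here. Each deposited score is the authors' own value, on a scale the file does not state, and it was used only to describe, rank and filter peaks. No read counts are given, so depth is unknown.

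Peaks were set against 21631 protein-coding genes of 20 chromosomes (RefSeq, GRCm38.p6) with pandas 2.3.3. A gene was called when a peak overlapped it or lay within 2.5 kb of it by at least 1 base. The best peak of a gene is its highest-scoring one, the wider where scores tie. Where a gene had several annotated starts, the CG values are those of the start with most CG dinucleotides. A listed start can lie inside the gene, and the sequence at the gene's outer end was then not read. The expected CpG number is the product of the C and G counts over the window length. Intervals are exact (Clopper-Pearson, scipy 1.17.1). All 42 genes are named. Of the other pathway genes up to 5 with a peak were named by score and up to 4 without in alphabetical order, and Acvrl1 was added after its values were seen. Of the target gene list, 1 gene is not reported here. The overlap step was tested on simulated data. The members and lists were chosen with earlier results of these data known.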

Additional observations from a re-analysis of the deposited data

How the results depend on the processing

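No paired analysis was possible because the groups hold 1 library each and 1 list was used. Of 47 alternative values, 39 stayed within the interval of the reported share and 8 moved. For the classes the intervals are wide, so this says little about stability. The receptors stayed at 0 of 8 under every setting that was run. No setting could have changed this, since the nearest peak lay 87.9 kb from any receptor gene. The antagonists stayed at 5 of 5 within 0, 1 or 5 kb, were at 3 of 5 with scores at or above the median (Bmper and Chrd lost), at 4 of 5 without peaks near other genes (Chrd lost, a setting added after seeing the data), and at 5 of 7 with Lefty1 and Lefty2 among them. The ligands ran from 8 of 29 at or above the median score, where Bmp7, Bmp8a, Tgfb1 and Nodal were lost, to 13 of 29 within 5 kb, where Lefty1 was gained. With the lowest score doubled as a minimum, Bmp7 and Nodal were lost. Without peaks near other genes, Tgfb1 and Gdf7 were lost among ligands. The 8 moved values all concern the share of all protein-coding genes, 13.1% as reported. It was 12.3% at 0 kb, 12.6% within 1 kb, 14% within 5 kb, 11.7% at gene ends, 8.74% over the start, 10.1% with the doubled minimum, 7.24% at or above the median and 10.4% without peaks near other genes. Its interval is narrow, so small shifts count as moves. One library and an unknown depth limit all of these values.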
